A study of Mus musculus with 36 samples.

Results

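Oligodendrocyte ribosome-bound RNA was compared between enforced and spontaneous wake: 12 bound-fraction arrays, 6 titled as sleep deprived and 6 titled as waking, were selected by their titles from the 36 arrays of the study. All mice were adult heterozygous Cnp – eGFP-L10a animals on C57BL/6, in which the promoter of the oligodendrocyte gene Cnp drives a tagged ribosomal protein, so that oligodendrocyte ribosomes with their messages can be pulled out of a forebrain homogenate (bound fraction) and the rest of the tissue kept (unbound fraction). The 6 sleep deprived mice had been awake by themselves through most of the dark phase and were then held awake for 4 h of the light period with new objects to explore. The 6 waking mice were killed between 3 and 5 am, in the dark, and had spent 70% or more of a 6 to 7 h window awake. A group of 6 sleeping mice, whose tissue was taken at 3 to 5 pm and who had slept for 75% or more of such a window, shares the estimate of the spread and is given as context. Enforced and spontaneous wake also differed in light phase and time of day, which cannot be told apart from the enforcement in this design. The promoter limits what is read: cells in which it is active are tagged, each array is 1 animal, and 6 arrays per group limit the precision of every value below.

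Oligodendrocytes wrap axons with myelin, and their messages on ribosomes are those being translated or ready for it. Staying awake past the usual hours is a mild stressor in rodents and is accompanied by release of corticosterone, the rodent glucocorticoid. This hormone binds the glucocorticoid receptor, which enters the nucleus and switches on a set of target genes in most cells of the brain. The receptor is long known in oligodendrocytes, and the core clock, in which Per and Cry proteins repress the activators Clock and Arntl, runs in glia as well as in neurons.

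The arrays carried the cell type of their label. The transgene's source gene Cnp was at 14.14 ± 0.05 log2 signal in the sleep deprived bound arrays, at 14.07 ± 0.03 in the waking bound arrays and at 12.92 ± 0.06 and 12.80 ± 0.08 in the unbound arrays of the same animals (SD, n = 6 each). Rpl10a, the mouse gene of the tagged protein, was at 11.35 ± 0.21 in sleep deprived and 11.47 ± 0.12 in waking bound arrays. Neither gene was called between the states (adjusted p = 0.102 and 0.541, limma). Neuron messages were still present in the bound arrays, with the summed signal of 15 neuron markers at 15.32 to 15.77 log2 in sleep deprived and 15.46 to 15.70 in waking animals, against 16.51 to 16.57 and 16.42 to 16.51 in their unbound arrays. In such bulk RNA, fewer cells of a type and less RNA per cell cannot be told apart. Array means of the bound fraction lay at 5.901 to 5.915 log2 after sleep deprivation and 5.920 to 5.936 in waking, which do not overlap. Among the bound arrays, sleep deprived animal 10 had the lowest mean correlation with its group (0.961). The Y-linked gene Eif2s3y was under 6 log2 in both arrays of 3 animals (sleep deprived 11, waking 3 and waking 5), so the groups also differ in the number of such animals (1 and 2).

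Of 13930 genes tested, 700 (5.03%) were called between enforced and spontaneous wake at a Benjamini-Hochberg adjusted p below 0.05 (limma with an intensity trend). After sleep deprivation 377 (2.71%) were higher, with a median change of 0.63 log2, and 323 (2.32%) lower, with a median of −0.71 log2. At least 2-fold changes were found for 144 genes, 62 higher and 82 lower. An unadjusted p under 0.05 was reached by 2777 genes, and the 6 animals of each group did not overlap for 524 genes (3.76%), 387 of them called. Leaving out the 3 animals without Y signal left 234 calls, 217 of them among the 700. Adding sex class (with or without Y signal) as a term instead gave 659 calls, 593 of them among the 700 (84.7%).

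Calls were unevenly spread over signal level. In 10 equal bins of level, 13.5% were called in the dimmest, 2.15% in bin 6 and 5.24% in the brightest, where 64 were higher and 9 lower. Of 6533 genes averaging at least 8 log2, 179 were higher and 73 lower in the deposited scaling, but 119 were higher and 133 lower after quantile normalization over the 18 bound arrays. Centring arrays on their median gave 211 higher and 60 lower. Among the large falls, the levels after sleep deprivation are often under the filter level of 4.47 log2, where a probe set may not detect its message.

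**Figure D1:**
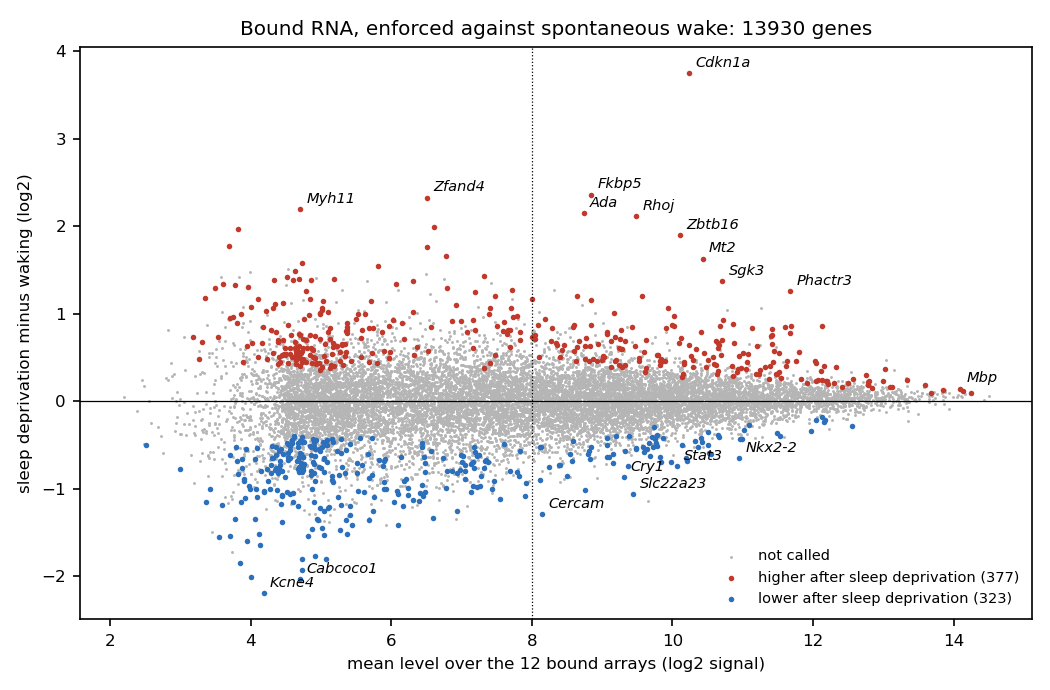
Change of each of 13930 tested genes (vertical axis, sleep deprivation minus waking in the bound arrays, log2) against its mean level over the 12 bound arrays (horizontal axis, log2 signal). Red points are the 377 genes called higher and blue points the 323 called lower; the dotted line marks 8 log2, above which Cdkn1a and Fkbp5 stand highest and Cercam lowest.

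The clearest group of rises was the glucocorticoid response list, known targets of the hormone's receptor. The lists were chosen with earlier results of these data known, so the list counts describe the data and are not an independent test. Of 21 members tested, 9 were higher after enforced wake and 0 lower, beside 2.71% higher among all genes, and 20 of 21 changes were positive. The list's median was 0.73 log2, beside 0.013 for all genes. Fkbp5, the cochaperone that lowers the receptor's affinity for its hormone, rose most. It stood at 8.91, 10.29 and 10.55 log2 (lowest, median and highest of 6) in sleep deprived animals, against 7.13, 7.43 and 8.74 in waking animals. The groups did not overlap, and the sleeping animals lay between 6.09 and 7.26. The change was 2.36 ± 0.30 log2 (SE), 5.14-fold, with an adjusted p of 0.00032, and a second probe set gave 1.98.

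Zbtb16, a zinc finger transcription factor and a sensitive glucocorticoid target, stood at 10.42, 11.25 and 11.46 log2 in sleep deprived animals, against 7.85, 9.10 and 10.73 in waking animals. Waking animal 3 reached into the sleep deprived range and the other 5 lay below it. It was 1.90 ± 0.33 log2 higher (adjusted p = 0.00273). The metallothioneins, small metal-binding proteins induced by glucocorticoids and by zinc, rose together. Mt2 stood at 9.64, 11.59 and 12.40 log2 after sleep deprivation, against 9.00, 9.69 and 10.07 in waking, a change of 1.63 ± 0.33 (adjusted p = 0.00784). Mt1 stood at 11.75, 12.71 and 12.89, against 11.15, 11.81 and 12.10, a change of 0.86 ± 0.18 (adjusted p = 0.00845). For both genes sleep deprived animal 7 was the only one within the waking range. Without the 3 animals without Y signal neither was called (adjusted p = 0.0569 and 0.0554).

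Arrdc2, an arrestin-domain adaptor, was at 8.74, 10.06 and 11.27 log2 after sleep deprivation and at 8.65, 8.90 and 9.47 in waking (1.20 ± 0.30, adjusted p = 0.0237). Pdk4, the kinase that closes the entry of pyruvate into mitochondria, was at 9.20, 10.79 and 11.26 and at 8.90, 9.43 and 9.81 (1.07 ± 0.30, adjusted p = 0.0442). Klf15, a transcription factor of amino acid and lipid use, was at 10.07, 10.51 and 11.03 and at 9.11, 9.50 and 9.93 (0.98 ± 0.21, adjusted p = 0.0104). Klf15 separated the groups completely, while Arrdc2 and Pdk4 overlapped through the lowest sleep deprived animals. Pdk4 was called in 9 of 23 alternatives and Arrdc2 in 19. Tsc22d3, the glucocorticoid-induced leucine zipper, changed by 0.48 ± 0.09 (adjusted p = 0.0048) and Errfi1, an inhibitor of the epidermal growth factor receptor, by 0.57 ± 0.12 (adjusted p = 0.00957), both without overlap between the groups. The Tsc22d3 call was lost when its probe sets were averaged (adjusted p = 0.142).

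Among the 12 members that were not called, 11 changes were positive. Sult1a1, a sulfotransferase, averaged 7.22 log2 after sleep deprivation and 5.77 in waking (adjusted p = 0.136). Fam107a, an actin-binding stress protein, averaged 11.30 and 10.26 (adjusted p = 0.11), and Plin4, a lipid droplet coat protein, 10.12 and 9.39 (adjusted p = 0.22). Sgk1, the classical glucocorticoid-induced kinase, averaged 13.27 and 12.80 (adjusted p = 0.254). Angptl4 was the single negative member (−0.32, adjusted p = 0.237). Of 7 genes of the receptor and its partners, among them the receptor gene Nr3c1 (−0.05 ± 0.09) and the chaperone Hsp90aa1 (0.08 ± 0.06), 0 were called in either direction (adjusted p of 0.31 or more).

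Animals differed in the strength of this pattern. The mean level over the 21 members was 9.51 log2 in sleep deprived animal 7 and 10.20 to 10.84 in the other 5, against 9.96 in waking animal 3 and 9.30 to 9.62 in the other 5 waking animals. Sleeping animals lay between 8.75 and 9.07. Sleep deprived animal 7 was the lowest of its group in 7 of the 9 called genes, and waking animal 3 the highest of its group in 6. Without sleep deprived animal 7 the list had 15 higher members, and without the 3 animals lacking Y signal, waking animal 3 among them, it had 5. In the other single-animal omissions it had 7 to 9, and 0 members were lower in each of these fits.

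**Figure D2:**
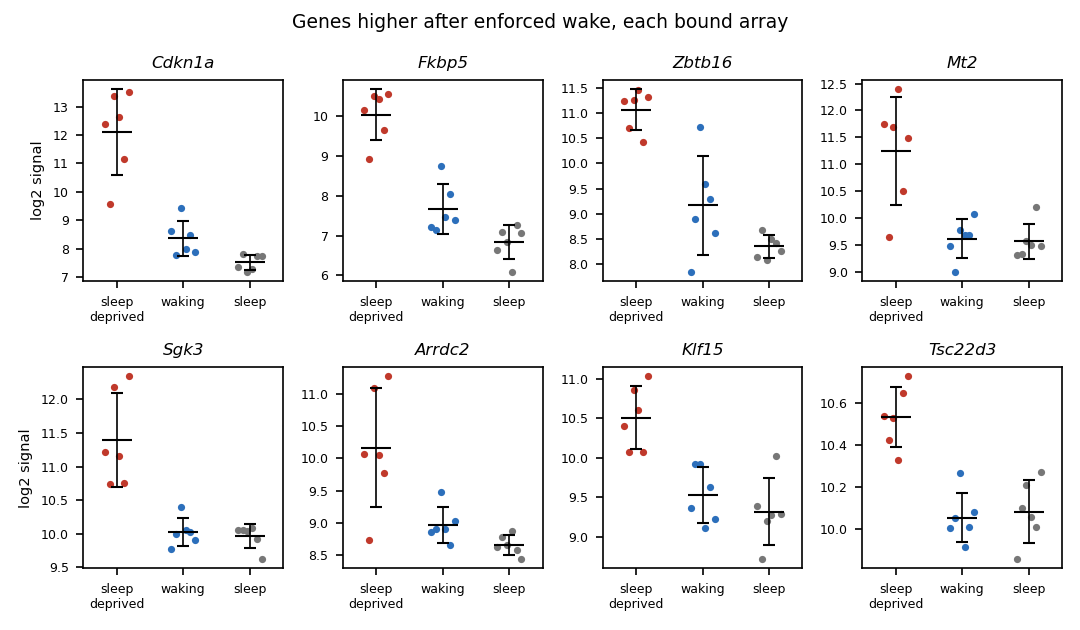
Level of 8 genes higher after enforced wake in each bound array (vertical axes, log2 signal, scaled per gene), with sleep deprived animals on the left, waking animals in the middle and sleeping animals on the right; points are animals and bars the mean ± SD of 6. Cdkn1a, Fkbp5, Sgk3, Klf15 and Tsc22d3 do not overlap between sleep deprived and waking animals, and 1 sleep deprived animal of Mt2 and Arrdc2 lies within the waking range.

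Promoters of Cdkn1a and of 4 called members of the glucocorticoid and clock lists are shown, chosen among the members with the smallest p because they hold a marked motif. Each is the 250 bases before the gene's start from RefSeq (GRCm38.p6), 5′ to 3′ on the gene's strand. Capitals mark a match on either strand to a searched motif: the E-box CACGTG, the metal response element TGCACNC or TGCGCNC (marked for the metallothioneins only), a relaxed glucocorticoid response element (GNACA and TGTNC, 3 bases apart), or a p53 core (CATGT and ACATG, 4 bases apart). The p53 motif was added after the values of Cdkn1a had been seen.
Cdkn1a, upstream start, chr17:29090729-29090978, plus strand: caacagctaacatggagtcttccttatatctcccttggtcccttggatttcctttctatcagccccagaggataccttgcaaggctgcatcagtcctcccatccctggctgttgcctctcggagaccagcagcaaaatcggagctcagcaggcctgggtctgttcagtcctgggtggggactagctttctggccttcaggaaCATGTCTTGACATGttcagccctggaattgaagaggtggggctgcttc
Fkbp5, chr17:28486150-28486399, minus strand: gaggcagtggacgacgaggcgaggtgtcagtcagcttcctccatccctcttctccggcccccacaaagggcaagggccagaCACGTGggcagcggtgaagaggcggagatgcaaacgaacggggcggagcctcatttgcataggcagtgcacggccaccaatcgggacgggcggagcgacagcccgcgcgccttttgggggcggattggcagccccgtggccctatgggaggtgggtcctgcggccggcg
Mt2, chr8:94172368-94172617, plus strand: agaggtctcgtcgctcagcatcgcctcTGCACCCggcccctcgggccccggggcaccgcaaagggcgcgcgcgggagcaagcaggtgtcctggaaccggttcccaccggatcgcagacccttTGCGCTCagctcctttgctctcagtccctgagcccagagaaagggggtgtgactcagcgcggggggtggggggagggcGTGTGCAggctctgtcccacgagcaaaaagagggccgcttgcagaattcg
Mt1, chr8:94178839-94179088, plus strand: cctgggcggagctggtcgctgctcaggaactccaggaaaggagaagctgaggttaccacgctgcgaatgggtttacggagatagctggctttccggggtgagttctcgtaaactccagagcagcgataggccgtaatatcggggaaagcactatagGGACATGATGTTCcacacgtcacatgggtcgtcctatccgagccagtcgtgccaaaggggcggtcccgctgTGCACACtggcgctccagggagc
Cry1, chr10:85185055-85185304, minus strand: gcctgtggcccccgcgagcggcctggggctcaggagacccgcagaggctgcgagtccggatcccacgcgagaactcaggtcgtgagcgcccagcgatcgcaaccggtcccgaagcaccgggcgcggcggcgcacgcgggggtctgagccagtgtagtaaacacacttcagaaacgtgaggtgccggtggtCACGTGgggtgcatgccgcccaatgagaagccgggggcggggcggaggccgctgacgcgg

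Mt2 held 3 metal response elements, and Mt1 held 1 beside the relaxed glucocorticoid element that begins at −94 from the start. Among 32851 promoters of this length, 21.4% held the metal element and 0.387% the relaxed glucocorticoid element. The metal element was in 31.4% of higher, 32.6% of lower and 33.9% of tested genes. The full palindrome (AGAACA and TGTTCT, 3 bases apart) was in 3 of the 32851 promoters (0.00913%) and in 0 of 303 higher genes with a promoter. The relaxed element was in 2 of these 303 (0.66%), against 0.339% of 11193 tested genes. The E-box, found in 6.02% of promoters, was in 36 of the 303 higher genes (11.9%), in 21 of 242 lower genes (8.68%) and in 9.54% of tested genes. The p53 core was in 0.11% of promoters; the second Cdkn1a start did not hold it. The D-box TTATGTAA and the cyclic AMP response element TGACGTCA were searched too, and stood in 1.32% and 3.3% of the higher genes, against 0.616% and 2.89% of tested genes. These matches describe letters in a window and say nothing of binding. Nr1d1 and the 3 starts of Tsc22d3 held neither an E-box, nor a glucocorticoid element, nor a p53 core.

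Cdkn1a, which encodes the cyclin-dependent kinase inhibitor p21, rose more than any other gene. It stood at 9.56, 12.52 and 13.52 log2 in sleep deprived animals, against 7.76, 8.22 and 9.43 in waking animals and 7.18 to 7.82 in sleeping animals. All 6 sleep deprived animals lay above all waking animals, with animal 7 again the lowest. The change was 3.75 ± 0.49 log2, 13.5-fold (adjusted p = 0.000408), with 3.58 in a second probe set, and it stayed called in 23 of 23 alternatives. It was not shared by the list it belongs to. Of 20 cyclin-dependent kinase inhibitors and p53 targets, 1 was higher and 1 lower, beside 2.71% and 2.32% of all genes, and the median was −0.02 log2. The lower one was Cdkn2c, another inhibitor of the same kinases, at 6.19, 6.74 and 7.13 after sleep deprivation against 7.06, 7.37 and 7.67 in waking (−0.63 ± 0.16, adjusted p = 0.0317), a call that held in 13 of 23 alternatives. Of 17 cell cycle genes 0 were called, with a median of −0.01.

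Among 16 Bcl2 family and caspase genes, 1 was called, beside 5.03% of all genes. Bcl2l1, whose main product protects cells from apoptosis, stood at 11.09, 11.55 and 11.78 log2 after sleep deprivation, against 10.78, 10.85 and 11.18 in waking (0.63 ± 0.11, adjusted p = 0.00255). Only waking animal 3 reached the sleep deprived range. Sgk3, a kinase related to Sgk1 that acts downstream of phosphoinositide signals, stood at 10.74, 11.18 and 12.34 against 9.77, 10.01 and 10.40 without overlap (1.37 ± 0.23, adjusted p = 0.00238). Phactr3, a regulator of protein phosphatase 1 and actin, stood at 11.44, 12.24 and 13.14 against 10.78, 11.01 and 11.43, also without overlap (1.26 ± 0.22, adjusted p = 0.00351). Of 15 insulin and FoxO signalling genes 0 were called (median −0.01), and Deptor, an inhibitor of the kinase mTOR, was lower (−0.85 ± 0.22, adjusted p = 0.031), with a call that was lost in 8 of 23 alternatives.

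Clock genes did not move as a group. Of 10 repressors, 1 was higher and 1 lower, beside 2.71% and 2.32% of all genes. Of 9 activators and outputs 0 were called, beside 5.03% of all genes (medians of the lists 0.05 and −0.07 log2). Cry1, a repressor of Clock and Arntl, stood at 8.63, 8.84 and 9.28 log2 in sleep deprived animals, against 9.26, 9.83 and 9.95 in waking animals. Sleep deprived animal 9 lay just above the lowest waking animal and no others overlapped (−0.87 ± 0.15, adjusted p = 0.00264). Sleeping animals, killed in the light phase as well, lay at 8.17 to 8.89. Nr1d1, the nuclear receptor that represses Arntl, showed the opposite picture at 8.47, 8.60 and 8.91 against 7.95, 8.15 and 8.33 (0.50 ± 0.11, adjusted p = 0.0117; 0.0554 without the 3 animals lacking Y signal), with sleeping animals at 8.67 to 9.09. Per3 averaged 6.07 after sleep deprivation and 6.96 in waking (adjusted p = 0.0727), and Per1 9.34 and 8.69 (adjusted p = 0.125). Time of day and the kind of wake cannot be told apart in these values.

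**Figure D3:**
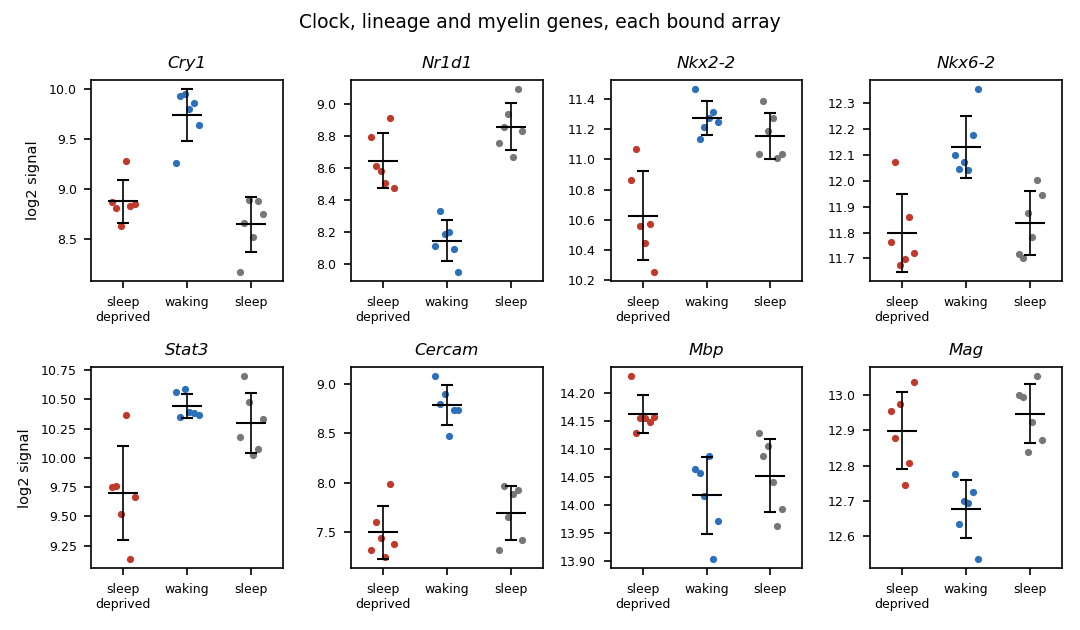
Level of clock (Cry1, Nr1d1), lineage (Nkx2-2, Nkx6-2), signalling (Stat3), cell adhesion (Cercam) and myelin (Mbp, Mag) genes in each bound array (vertical axes, log2 signal, scaled per gene), with sleep deprived animals left, waking animals in the middle and sleeping animals right; points are animals and bars the mean ± SD of 6. Cry1 and Cercam are low and Nr1d1 is high in sleep deprived as in sleeping animals, while Stat3 and Nkx2-2 are lowest after sleep deprivation.

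Immediate-early genes report recent cell activity. Of 21, 3 were higher and 0 lower, beside 2.71% higher among all genes, with a median of −0.04 log2, and 7 were higher in the unbound arrays, beside 8.48% of all genes there. Fosl2, a late member of the Fos family, stood at 7.85, 8.02 and 8.37 after sleep deprivation, against 6.80, 7.32 and 7.65 in waking, without overlap (0.77 ± 0.15, adjusted p = 0.00741). However, a second probe set of Fosl2 gave −0.49, and the mean of all its probe sets was not called (adjusted p = 0.593). Egr3 (0.63 ± 0.17) and Homer1 (0.56 ± 0.16) were called by narrow margins (adjusted p = 0.0378 and 0.0485) that held in 10 and 8 of 23 alternatives, and both are depleted from the bound arrays. Jun averaged 11.07 and 11.47 (adjusted p = 0.0758). Of 16 MAP kinase phosphatases and Sprouty genes, which switch off growth factor signalling, 2 were higher and 0 lower, beside 2.71% and 2.32% of all genes. These were Dusp1 (0.55 ± 0.14, adjusted p = 0.0304) and Spry2 (0.34 ± 0.10, adjusted p = 0.0485), with calls held in 15 and 6 of 23 alternatives.

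Protein folding genes leaned upward with few calls. Of 17 endoplasmic reticulum folding genes, 2 were higher and 0 lower, beside 2.71% and 2.32% of all genes. Of their changes 15 were positive, and the median was 0.38 log2, beside 0.013 for all genes. Calr, the calcium-binding chaperone calreticulin, stood at 11.70, 11.87 and 11.99 in sleep deprived animals, against 11.24, 11.41 and 11.55 in waking animals (0.46 ± 0.09, adjusted p = 0.00648). Sel1l, a part of the machinery that removes misfolded proteins, stood at 10.68, 10.78 and 11.01 against 10.12, 10.44 and 10.53 (0.43 ± 0.10, adjusted p = 0.0154; 0.137 without the 3 animals lacking Y signal). Neither overlapped between groups. Of 17 cytosolic heat shock genes 0 were called, although 16 changes were positive (median 0.13): Hspa1a averaged 9.27 after sleep deprivation and 8.17 in waking (adjusted p = 0.403), and Hspa8 13.94 and 13.81 (adjusted p = 0.163). In the unbound arrays, in the deposited scaling, 12 of the 17 heat shock and 4 of the 17 endoplasmic reticulum genes were higher, beside 8.48% of all genes there. Of 18 genes of ATF4 and amino acid supply 0 were called (median 0.05), and so were 0 of 25 proteasome and 0 of 13 ribosomal protein genes (medians 0.02 and −0.01). The cold-inducible Cirbp, the single member of its list tested, averaged −0.24 log2 with an adjusted p of 0.573.

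Myelin messages, the main product of these cells, changed by small amounts. Of 15 myelin and mature oligodendrocyte genes, 2 were higher and 1 lower, beside 2.71% and 2.32% of all genes, with a median of −0.002 log2. Mbp, myelin basic protein, stood at 14.13, 14.16 and 14.23 after sleep deprivation, against 13.90, 14.04 and 14.09 in waking (0.15 ± 0.03, adjusted p = 0.016). Mag, an adhesion protein of the inner myelin layer, stood at 12.74, 12.92 and 13.04 against 12.53, 12.70 and 12.78 (0.22 ± 0.05, adjusted p = 0.0198). Aspa, the enzyme that frees acetate from N-acetylaspartate, stood at 11.91, 12.04 and 12.17 against 12.11, 12.24 and 12.27 (−0.17 ± 0.05, adjusted p = 0.036). These are 1.11-, 1.17- and 1.13-fold differences, and after quantile normalization over the bound arrays 0 of the 15 were higher and 2 lower, with neither Mbp nor Mag called. Leaving out the 3 animals lacking Y signal left 0 higher and 1 lower. Over 23 alternatives the calls of Mbp, Mag and Aspa were lost in 5, 4 and 12.

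Among 15 transcription factors of the lineage, 2 were higher and 2 lower, beside 2.71% and 2.32% of all genes, with a median of −0.002 log2. Nkx2-2, which drives the step to myelinating cells, stood at 10.25, 10.57 and 11.07 after sleep deprivation, against 11.13, 11.26 and 11.47 in waking, without overlap (−0.65 ± 0.11, adjusted p = 0.00302, called in 23 of 23 alternatives). Nkx6-2, a homeodomain factor of mature oligodendrocytes, stood at 11.67, 11.74 and 12.07 against 12.04, 12.09 and 12.35 (−0.33 ± 0.08, adjusted p = 0.0132; 0.09 without the 3 animals lacking Y signal). Zfp536 was higher (0.52 ± 0.13, adjusted p = 0.023), as was Olig1 (0.17 ± 0.04, adjusted p = 0.0315), and their calls held in 17 and 12 of 23 alternatives. Of 14 precursor and premyelinating genes, 0 were higher and 1 lower (median 0.01). Lhfpl3 stood at 5.10, 5.98 and 6.50 against 6.51, 7.00 and 7.71 (−1.08 ± 0.25, adjusted p = 0.0152), but its second probe set moved by 0.94.

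Genes of membrane lipid supply gave no calls. Of 19 cholesterol synthesis genes 0 were called, with 16 negative changes and a median of −0.22 log2. Of 23 phospholipid genes 0 were called, and 0 of 21 fatty acid and sphingolipid genes (both medians at 0.02 to 0.03). Of 14 genes of the paranode, adhesion and glial connexins 0 were called (median 0.01), and 0 of 9 iron handling genes (0.04). Among 20 glycolysis and lactate genes Pdk1, a relative of Pdk4, was lower at 6.23, 7.47 and 7.93 after sleep deprivation against 7.85, 8.51 and 8.98 in waking (−1.08 ± 0.25, adjusted p = 0.0171). However, a second probe set of Pdk1 gave 0.20, and the mean of all its probe sets was not called (adjusted p = 0.625). Of 25 oxidative phosphorylation genes 1 was higher, the complex I subunit gene Ndufa8 (0.36 ± 0.09, adjusted p = 0.0252), and 0 lower.

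Ada, adenosine deaminase, was the single called member of 9 adenosine genes. It stood at 8.40, 9.79 and 11.11 log2 in sleep deprived animals, against 6.59, 7.87 and 8.39 in waking animals, and the groups met without overlapping. The change was 2.15 ± 0.46 (adjusted p = 0.0104; 0.0649 without the 3 animals lacking Y signal), and sleeping animals were at 7.42 to 9.17. Ada was 4.10 log2 higher in the bound than in the unbound arrays of sleeping animals. Rhoj, a small GTPase also enriched in the bound arrays (2.28 log2), stood at 9.34, 10.65 and 11.20 against 7.25, 8.46 and 9.46 (2.12 ± 0.32, adjusted p = 0.00137). Waking animal 3 lay above sleep deprived animal 7 and no others overlapped.

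**Figure D4:**
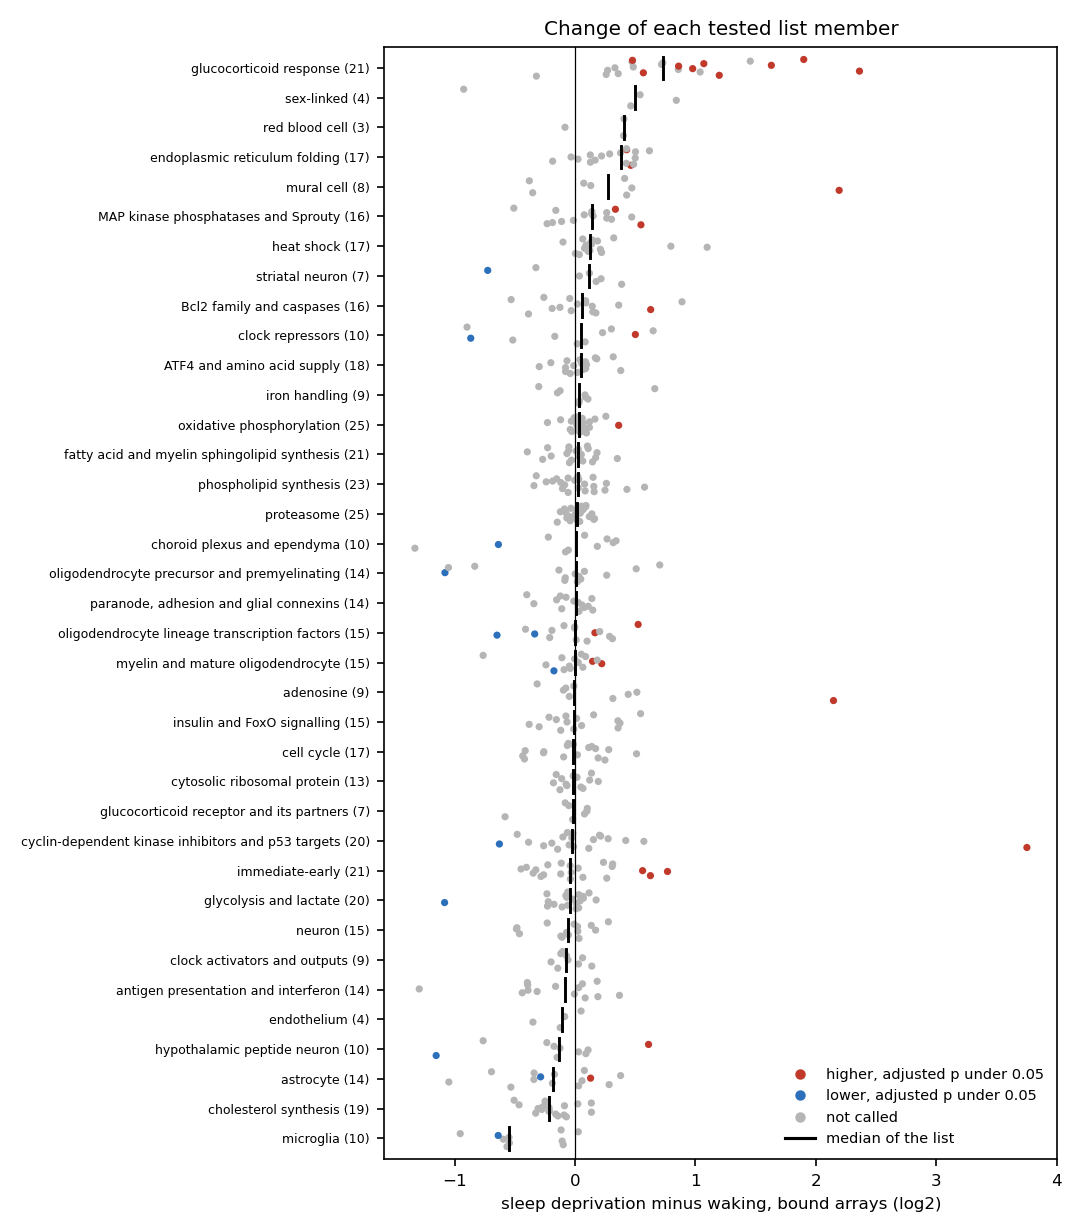
Change of each tested member (horizontal axis, sleep deprivation minus waking in the bound arrays, log2) in each gene list of more than 1 tested member (rows, number tested in brackets), ordered by the list's median (black bar). Red points are members called higher, blue points members called lower and grey points members not called. The glucocorticoid response list has the highest median (0.73) and the microglia list, of markers depleted from the bound arrays, the lowest (−0.55).

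By the 6 sleeping animals, which are in neither group compared, 1272 genes were at least 2-fold higher in the bound than in the unbound arrays, and 95 of them (7.47%) were called between the states of wake, 67 higher and 28 lower. Of 3863 genes at least 2-fold lower in the bound arrays 239 (6.19%) were called, 96 higher and 143 lower, and of 8795 genes in between 366 (4.16%). Above 8 log2 the shares were 8.07% of 1004 enriched genes, 3.17% of 1042 depleted genes and 3.08% of 4487 others. The difference between these shares was not tested.

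The following enriched genes were picked after their values were seen. Erbb3, a neuregulin receptor, stood at 9.98, 10.18 and 10.60 log2 after sleep deprivation, against 10.66, 10.81 and 10.99 in waking, without overlap (−0.59 ± 0.10, adjusted p = 0.00362). Il33, a nuclear cytokine of oligodendrocytes, stood at 12.75, 12.92 and 13.02 against 12.50, 12.58 and 12.76 (0.30 ± 0.05, adjusted p = 0.00246). Both stayed called in 23 of 23 alternatives. Cklf, a chemokine-like factor, was 1.76 ± 0.33 log2 higher (adjusted p = 0.00451) with 1.75 in a second probe set. Slc25a13, the mitochondrial aspartate-glutamate carrier, was 1.16 ± 0.23 higher (adjusted p = 0.00634), and Amer2, a regulator of Wnt signalling, 1.10 ± 0.27 higher (adjusted p = 0.0239). Car13, a carbonic anhydrase, was lower by −0.97 ± 0.26 (adjusted p = 0.0378), with −1.06 in a second probe set.

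Among bright genes, Cercam, a cell adhesion molecule, showed the largest fall. It stood at 7.25, 7.41 and 7.99 log2 in sleep deprived animals, against 8.47, 8.77 and 9.07 in waking animals, without overlap (−1.29 ± 0.15, adjusted p = 0.000213), and at 7.33 to 7.96 in sleeping animals. Slc22a23, a transporter-like membrane protein, stood at 8.67, 8.82 and 9.53 against 9.61, 10.02 and 10.21 (−1.06 ± 0.15, adjusted p = 0.000814). Nectin1, an adhesion molecule, stood at 7.84, 8.22 and 8.73 against 8.75, 9.19 and 10.17 (−1.01 ± 0.21, adjusted p = 0.00842), but its second probe set gave 0.15. Stat3, a transcription factor of cytokine signalling, stood at 9.13, 9.71 and 10.37 against 10.35, 10.39 and 10.59 (−0.74 ± 0.15, adjusted p = 0.00892). Sleep deprived arrays of Stat3 were lower in 5 of 6 animals than every waking array, yet its second probe set moved by −0.18. The Stat3 call was lost with the mean of all its probe sets and without the 3 animals lacking Y signal. Ak4, a mitochondrial adenylate kinase (−0.90 ± 0.23), and Pex26, a peroxisome assembly factor (−0.75 ± 0.21), fell by margins (adjusted p = 0.0252 and 0.0456) lost in 5 and 14 of 23 alternatives.

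Several of the largest changes were at dim probe sets. Zfand4 stood at 5.69, 7.48 and 9.27 log2 after sleep deprivation, against 4.86, 5.34 and 5.95 in waking (2.33 ± 0.49, adjusted p = 0.00953). Zfp939 was 1.99 ± 0.39 higher, Fgf5, a growth factor, 1.97 ± 0.37 and Perp, a p53-induced membrane protein, 1.77 ± 0.36, the last rising to 4.58 log2 after sleep deprivation against 2.81 in waking. Kcne4, a potassium channel subunit, had the most negative fitted change. It stood at 2.77, 3.11 and 3.38 against 4.61, 5.26 and 5.81 (−2.19 ± 0.19, adjusted p = 6.85e-06), but all sleep deprived animals were below the filter level, so that the size and rank of this fall are not well measured, and it was not tested under the bound-only or the stricter filter. Means under that level after sleep deprivation were also found for Cabcoco1 (−2.04 ± 0.32), the dynein gene Dnah7a (−2.01 ± 0.45), the lipid flippase gene Atp8b1 (−1.93 ± 0.34), Zfp599 (−1.85 ± 0.33), the virus receptor gene Cxadr (−1.81 ± 0.38), Aard (−1.80 ± 0.40), Tcf19 (−1.77 ± 0.29), Moxd1 (−1.64 ± 0.31) and the Notch target Hey2 (−1.55 ± 0.29). The second probe set of Cxadr moved by 0.17. Dnah7a (adjusted p = 0.127), Aard (0.0784), Perp (0.0651) and Fgf5 (0.0554) were not called without the 3 animals lacking Y signal.

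The summed levels of other cells' markers overlapped between the groups in the bound arrays for each list given here, and none of the sums was tested. The summed signal of 10 microglia markers was 8.82 to 9.34 log2 after sleep deprivation and 9.20 to 9.90 in waking, and the list's median change was −0.55 with 9 of 10 negative. Cx3cr1, the fractalkine receptor, was the called member (−0.64 ± 0.13, adjusted p = 0.00873), at 4.20 to 4.70 against 4.69 to 5.39, with 0.09 in a second probe set. P2ry12 averaged 3.85 and 4.80 (adjusted p = 0.0736). The sleep deprived range of Cx3cr1 spans the filter level of 4.47 log2 and the P2ry12 mean lay under it, so these falls are not well measured. The 10 markers are depleted from the bound arrays, with a median of −2.34 log2 against the unbound arrays of sleeping animals. In the unbound arrays the microglia sum was 11.26 to 11.98 after sleep deprivation and 10.99 to 11.70 in waking. The part of microglia RNA in other results was not tested.

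Of 15 neuron markers 0 were called (median −0.05 log2). Of 14 astrocyte markers Glul (0.13 ± 0.03) was higher and Ndrg2 (−0.29 ± 0.06) lower, and Glul was not called after quantile normalization. The astrocyte sum was 14.76 to 14.84 log2 after sleep deprivation and 14.68 to 14.83 in waking. Of 7 striatal markers Rgs9 was lower (−0.72 ± 0.18, adjusted p = 0.0267), and of 10 hypothalamic peptide genes Pomc was higher (0.61 ± 0.17, adjusted p = 0.0381) and Cartpt lower (−1.15 ± 0.21, adjusted p = 0.00375). Myh11, a smooth muscle myosin, was the single called mural marker of 8, at 5.01, 5.44 and 6.92 against 3.35, 3.59 and 4.06 (2.19 ± 0.45, adjusted p = 0.00772; 0.0554 without the 3 animals lacking Y signal). All waking values of Myh11 lay under the filter level of 4.47 log2, so the size of its rise is not well measured. The mural sum overlapped, at 8.58 to 9.48 after sleep deprivation and 8.29 to 9.26 in waking. The endothelial sum was 7.97 to 8.74 and 7.84 to 8.77 with 0 of 4 members called, and that of 3 red blood cell genes 12.08 to 12.51 and 12.26 to 12.57 with 0 called. Foxj1, a regulator of motile cilia, was the called member of 10 choroid plexus and ependyma genes (−0.64 ± 0.16, adjusted p = 0.0234), whose sum was 11.19 to 11.58 and 10.97 to 11.79. Over 23 alternatives the call was lost in 1 for Ndrg2, 5 for Glul, 6 for Rgs9, 11 for Pomc and 5 for Foxj1. Cartpt stayed called in all 22 that tested it. Of 14 antigen presentation and interferon genes 0 were called (median −0.08), and of 4 sex-linked genes 0.

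The unbound arrays of the same animals gave 1390 calls (9.98%), 1181 higher (8.48%) and 209 lower (1.5%), around a median of 0.11 log2 for all genes. After quantile normalization over the 18 unbound arrays there were 586, 285 higher and 301 lower, so the excess of rises was not present after that scaling, the one alternative scaling run on the unbound arrays. In both fractions 105 genes were called, 85 in the same and 20 in opposite directions, which is 15% of the bound and 7.55% of the unbound calls. Whether a bound change differed from the unbound one was tested within animals, on the difference between the 2 arrays of each. That test called 673 genes (4.83%), 188 (1.35%) with a more positive and 485 (3.48%) with a more negative change in the bound arrays. This balance turned round with the scaling: quantile normalization over the 18 arrays of each fraction gave 293 positive and 260 negative differences, and over all 36 arrays 305 and 266. Of the 700 bound calls 222 also differed between the fractions; since the difference contains the bound change, its direction in these genes is not a separate result.

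In the deposited scaling, the glucocorticoid response list had 10 of 21 members higher in the unbound arrays, beside 8.48% of all genes there. In the bound arrays 9 were higher, beside 2.71% of all genes. Between the fractions 4 of the 21 differed, beside 4.83% of all genes. Cdkn1a and these 4 changed more in the bound arrays. Cdkn1a changed by 3.75 ± 0.49 log2 there and 1.64 ± 0.13 in the unbound arrays, a difference of 2.12 ± 0.46 (adjusted p = 0.0132). Fkbp5 changed by 2.36 and by 0.93 ± 0.20 (difference 1.43 ± 0.30, adjusted p = 0.00967), Mt2 by 1.63 and 0.56 ± 0.14 (1.07 ± 0.26, adjusted p = 0.0231; 0.0814 without the 3 animals lacking Y signal) and Mt1 by 0.86 and 0.36 ± 0.13 (0.50 ± 0.13, adjusted p = 0.04; 0.179 without those animals). Klf15 moved by 0.98 in the bound and 0.05 ± 0.19 in the unbound arrays (0.93 ± 0.19, adjusted p = 0.00967; 0.0779 without those animals). Other glucocorticoid members did not differ by this test: Arrdc2 changed by 1.20 and 1.43 ± 0.30 (difference −0.23 ± 0.33, adjusted p = 0.749), Errfi1 by 0.57 and 0.54 ± 0.12 (0.02 ± 0.15, adjusted p = 0.953), and Zbtb16 by 1.90 and 0.89 ± 0.11 (1.01 ± 0.31, adjusted p = 0.0717). Zbtb16, Fkbp5 and Cdkn1a are also lower in level in the bound than in the unbound arrays of sleeping animals (−1.20, −1.57 and −1.17 log2).

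Bcl2l1 rose in the bound arrays and changed by −0.15 ± 0.16 in the unbound ones (difference 0.78 ± 0.14, adjusted p = 0.00423), and Sgk3 by 1.37 and 0.29 ± 0.16 (1.08 ± 0.21, adjusted p = 0.00586). Phactr3 changed by 1.26 and 0.27 ± 0.08 (0.98 ± 0.21, adjusted p = 0.0131). Cercam changed by −1.29 in the bound and 0.20 ± 0.24 in the unbound arrays (−1.49 ± 0.27, adjusted p = 0.00483), Slc22a23 by −1.06 and 0.01 ± 0.14 (−1.07 ± 0.18, adjusted p = 0.00286), and Kcne4 by −2.19 and 0.07 ± 0.21 (−2.26 ± 0.31, adjusted p = 0.000859). Cry1 moved by −0.87 and by −0.27 ± 0.13 (−0.60 ± 0.16, adjusted p = 0.039), a call lost in all 4 alternatives run for it (adjusted p = 0.0704 to 0.108), while for Nr1d1 (0.27 ± 0.15, adjusted p = 0.322) and Nkx2-2 (−0.28 ± 0.21, adjusted p = 0.483) the fractions did not differ by this test.

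**Figure D5:**
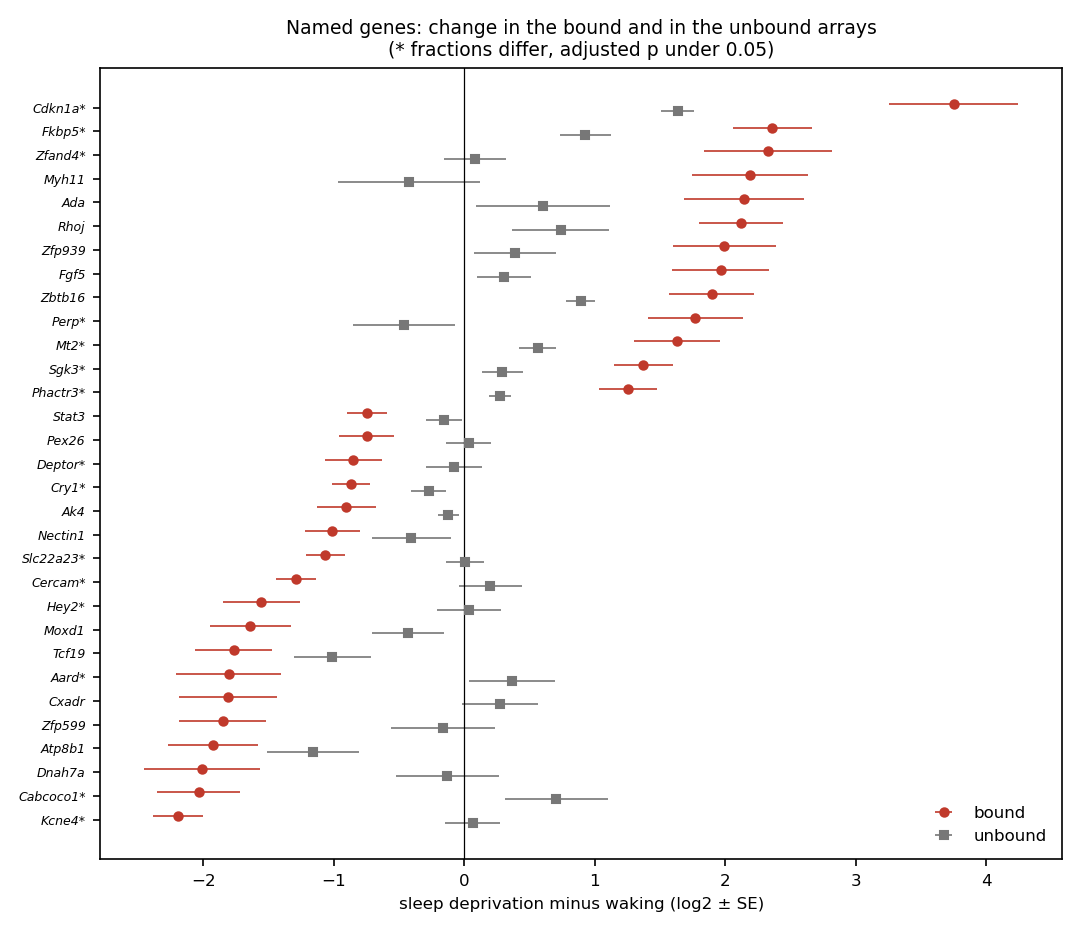
Change between sleep deprivation and waking (horizontal axis, log2 ± SE, 6 animals per group) of the named genes with the largest changes, in the bound arrays (red circles) and in the unbound arrays of the same animals (grey squares). Stars mark genes whose change differs between the fractions; Cdkn1a, at 3.75 in bound and 1.64 in unbound arrays, is the highest in both.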

How the data were processed

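Bound and unbound forebrain RNA of 18 mice was hybridized to mouse expression arrays, 36 in all. The authors deposited log2 signals per probe set, made with RMA per the submitters' processing notes (version not given in the sources used here; which arrays were normalized together is not stated). They were used as deposited. Of 45101 probe sets, 34945 named 1 gene in the platform annotation, 932 several and 9160 none, and 64 were controls. One probe set per gene, the brightest over 36 arrays, was kept. Genes were tested if their mean reached the 40th percentile of probe sets in the bound (4.47 log2) or unbound arrays (5.18 log2), 13930 in all.

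State contrasts were fitted with limma 3.58.1 (R 4.3.3; intensity trend) to 3 group means per fraction, 18 arrays each. Differences between fractions were fitted to the bound minus unbound value of each animal, since each animal gave both arrays; the deviations of an animal's 2 arrays correlated by −0.0033 to 0.0848. Genes were called at a Benjamini-Hochberg adjusted p under 0.05. Errors of changes are limma standard errors. Figures were drawn with matplotlib 3.10.9 (Python 3.11.15).

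The comparison, the 38 gene lists (589 genes, 520 tested) and the rules were chosen with earlier results of these data known. Genes named were the 10 largest rises and falls, the 8 largest each way at 8 log2 or more, the 3 smallest p-values of every list, all called members of the glucocorticoid, clock, myelin and precursor lists, the 5 largest fraction differences each way, the transgene's genes, Cdkn1a and sex-linked genes; other genes given with values were picked after their values were seen. No set test was run. Alternatives covered normalization, filter, probe set, arrays in the fit, variance trend, sex class and each replicate left out.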

Additional observations from a re-analysis of the deposited data

Results flagged for a closer look

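Among 176 groups of 6 bound arrays, 8 (4.55%) held an animal far from its group, and chance alone gives about 1 in 20. Sleep deprived animal 7 stood high for Slc22a23 (9.53 log2, others 8.67 to 8.92) and Spry2 (10.05, others 9.66 to 9.79), and sleep deprived animal 6 for Mbp (14.23, others 14.13 to 14.16) and Dnah7a (4.10, others 2.38 to 3.00). Cry1 was high in sleep deprived animal 9 (9.28, others 8.63 to 8.87), and Cartpt low in sleep deprived animal 11 (4.57, others 5.47 to 5.98). Bcl2l1 was high in waking animal 3 (11.18, others 10.78 to 10.91). Rbfox3, a neuronal splicing factor, was low in waking animal 5 (9.52, others 9.92 to 10.14).

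The change after sleep deprivation differed between the bound and unbound arrays, by the within-animal test, for 26 of the genes named. It was more positive in the bound arrays for Nkd2 (2.66 log2), Zfand4 (2.24), Perp (2.23), Pdlim3 (2.20), Cdkn1a (2.12), Fkbp5 (1.43), Sgk3 (1.08), Mt2 (1.07), Phactr3 (0.98), Klf15 (0.93), Bcl2l1 (0.78) and Mt1 (0.50). It was more negative for Cabcoco1 (−2.74), B4galt1 (−2.37), Kcne4 (−2.26), Aard (−2.17), Foxj1 (−1.90), Hey2 (−1.59), Cartpt (−1.50), Cercam (−1.49), Pdk1 (−1.32), Slc22a23 (−1.07), Rgs9 (−1.07), Deptor (−0.77), Rbfox3 (−0.65) and Cry1 (−0.60). Of these 26, 10 were not called without the 3 animals lacking Y signal: Aard, Cabcoco1, Cartpt, Cry1, Klf15, Mt1, Mt2, Perp, Rgs9 and Zfand4 (adjusted p = 0.0741 to 0.197). Without the pairing of an animal's arrays 5 were not called: Cry1, Deptor, Klf15, Mt1 and Mt2. Cry1 was also lost after both quantile normalizations. The Rbfox3 fraction difference was not called after either quantile normalization (adjusted p = 0.0625 and 0.0593). Foxj1 and B4galt1, among others, moved in opposite directions in the fractions: Foxj1 by −0.64 in bound and 1.27 in unbound arrays, B4galt1 by −0.84 and 1.53. Pdlim3 and Nkd2 rose in the bound arrays by less than their fraction differences, so their unbound changes were negative. With 1 animal left out, their bound rises were 0.56 to 0.73 and 1.27 to 1.76 log2.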

How the results depend on the processing

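The 700 bound calls became 2124 of 18193 genes with no filter on dim genes, 226 of 9444 with the filter at the 60th percentile, and 234 without the 3 animals lacking Y signal, and ran from 532 to 704 when each animal was left out in turn. Other alternatives gave 482 to 894, with 659 when sex class was added as a term. Among 88 genes followed through both fits, 37 lost their call without the 3 animals and 5 with the sex class term. The 88 include genes with no call to lose, such as Cnp and Sgk1, so the share of calls lost is larger than these counts over 88. The share of calls that were higher was 53.9%, 49.3% after quantile normalization over the bound arrays and 61.1% with arrays centred on their median. The 673 fraction differences (188 positive, 485 negative) became 254 without the 3 animals and turned to 293 positive and 260 negative after quantile normalization within fractions, and the 1390 unbound calls 586 after quantile normalization and 712 without the 3 animals. No paired analysis was possible because sleep deprived and waking animals are different mice that share 1 number only; for the fraction difference, leaving out the replicate block (the pairing of an animal's arrays) gave 722 calls. Cnp, not called, changed sign after quantile normalization over the bound arrays (−0.0245, adjusted p = 0.542) or over all arrays (−0.0247, adjusted p = 0.573). Of 66 called genes named by rule, 24 were called under every alternative that tested them and 50 in every fit with 1 animal left out; the causes of the losses were not tested. A lost call in a smaller fit does not show a smaller effect. Second probe sets moved the same way for 187 of 265 called genes (70.6%) and for 57.9% of 6439 others. Array number, dim signal, the scaling and the 3 animals lacking Y signal all limit these values.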
